A study of Mus musculus with 6 samples.

Results

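Of 49315 genes in the count files, 6 that encode reductases of progesterone and related steroids, or close relatives of such enzymes, are described here: Akr1c18, Akr1c14, Akr1b7, Akr1cl, Srd5a1 and Srd5a3. They were matched by symbol, and each passed the filter on low counts that kept 18250 genes. They were chosen by their role in or near progesterone breakdown and selected on their CPM in the 3 wild-type and 3 knockout libraries, which were known at the time. The wild-type and knockout values of the 6 genes are therefore a description, with no test. The steroid substrates are those known from biochemistry, and no steroid was measured.

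Progesterone is made from cholesterol in granulosa and luteal cells and is removed by reductases that add hydrogen to its ketone and double-bond positions. AKR1C18 is the rodent 20-alpha-hydroxysteroid dehydrogenase, which turns progesterone into an inactive alcohol. It is best known from the corpus luteum, where prolactin holds it down and its rise accompanies luteal regression in rodents. Steroid 5-alpha-reductases attack the ring instead, and 3-alpha-reducing aldo-keto reductases act on the product.

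The libraries came from freshly isolated granulosa cells, the cells around the oocyte, of C57BL/6J mice aged 8 to 9 weeks. In 3 libraries the mice were wild type (WT), and in 3 they carried a knockout (KO) of Jmjd3, also named Kdm6b, a demethylase that removes a repressive methyl mark from histone H3; the series describes the knockout as specific to granulosa cells. The sources used here do not name the driver of the deletion, the deleted exons, any hormone treatment, the cycle stage or the number of animals behind a library. The p-values below therefore reflect only how far these 6 libraries vary, and that variation may be technical.

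Counts per library summed to between 42379018 and 49901493. Levels are CPM, that is, counts scaled to a common normalised library size, and 3 values of 1 group are given in the order of replicates 1 to 3. A log2 fold change is that of KO over WT with its standard error (SE), from edgeR's fit over all genes kept. Kdm6b RNA had 66.2 to 72.8 CPM in WT libraries and 64.7, 68.6 and 112 CPM in KO libraries. KO replicate 1 lay below the WT range, KO replicate 2 within it and KO replicate 3 above it (0.26 ± 0.22 SE, or -0.04 ± 0.08 SE leaving out KO replicate 3), so the genotype rests on the labels. All 12 granulosa cell markers listed were detected, with a summed level of 17020 to 19990 CPM in WT and 19760 to 26580 CPM in KO. Of these, Amhr2, the receptor gene for anti-Mullerian hormone, was called lower, with 240 to 293 CPM in WT libraries and 127 to 141 CPM in KO libraries (-1.01 ± 0.09 SE, adjusted p = 0.00212 in edgeR). KO replicate 3 stood apart from the other KO libraries. The mean chi-square per gene was 96.8 and 59.9 against KO replicates 1 and 2, while the other pairs of 1 group had 17.0 to 26.3.

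Akr1c18 had by far the widest range of the 6 genes, and every KO library stood above every WT library. The WT libraries had 9.81, 12.9 and 5.75 CPM, whereas the KO libraries had 854, 454 and 67.6 CPM. Even the lowest KO library was thus 5.24 times the highest WT library. Relative to the WT mean, KO replicates 1, 2 and 3 stood 90.1-fold, 47.9-fold and 7.13-fold higher. The KO libraries differed among themselves by 12.6-fold and the WT libraries by 2.24-fold. The group means were 9.48 ± 3.58 CPM in WT and 458 ± 393 CPM in KO (SD, n = 3 each), and the log2 fold change was 5.60 ± 1.19 (SE). Leaving out KO replicate 3 gave 6.11 ± 0.56 (SE) and leaving out KO replicate 1 gave 4.78 ± 1.09 (SE). In such bulk RNA, more cells that express a gene and more RNA per cell cannot be told apart.

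The levels of Akr1c18 rested on ample counts. The gene had 504, 614 and 290 reads in the WT libraries and 40050, 19273 and 3253 reads in the KO libraries. CPM per kb of exon divides CPM by the length of all annotated exons of a gene, so it compares genes of different length only roughly. Ranked by it, Akr1c18 held places 6132, 5035 and 8215 of 18250 in WT. In KO it held places 44, 99 and 963. By this measure it ranked above Star, at places 146 and 222, in KO replicates 1 and 2. In KO replicate 3 it ranked below Star, which was at place 299. The order rests on the exon lengths, 1207 bases for Akr1c18 and 4113 for Star. In reads, Star was higher in each KO library, with 54600, 32286 and 29705.

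**Figure D1:**
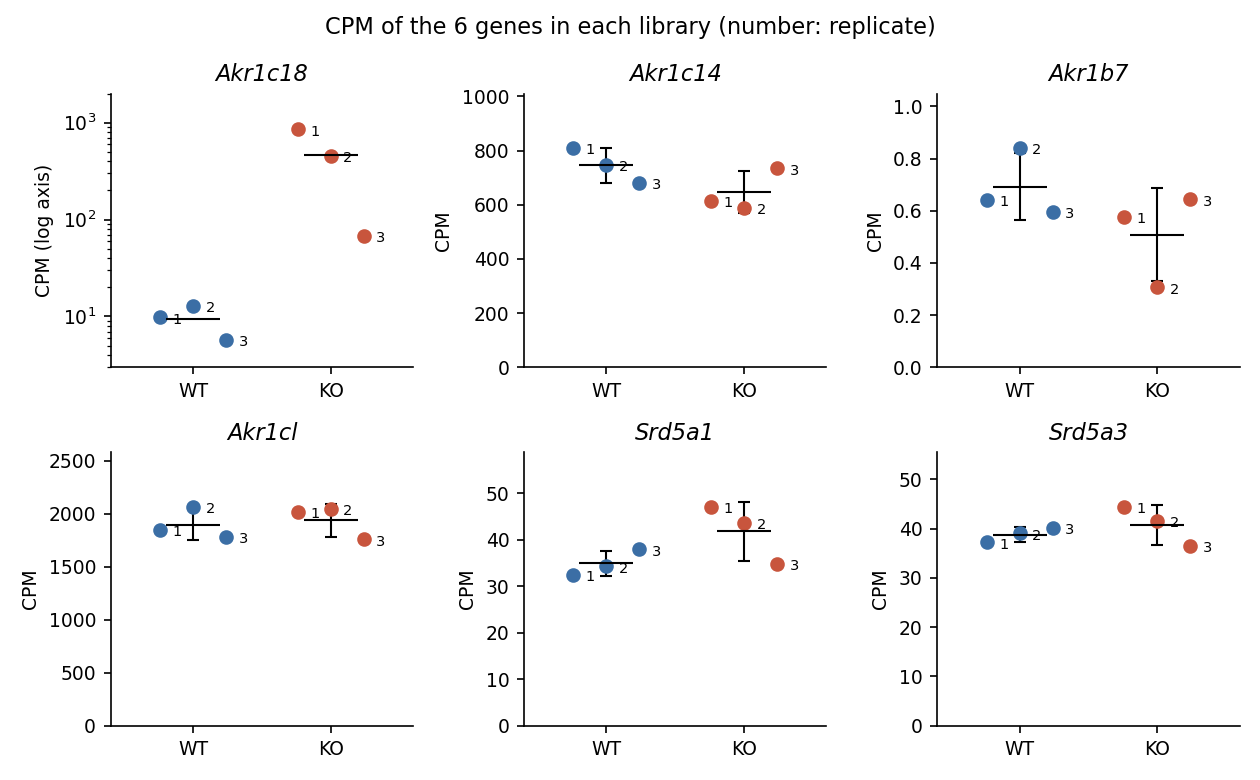
CPM of each of the 6 genes in WT and KO libraries (points, with the replicate number beside each; bars are group means and, except for Akr1c18 on its log axis, whiskers are SD, n = 3). Akr1c18 stands at 5.75 to 12.9 CPM in WT and at 67.6 to 854 CPM in KO, while the groups overlap for the other 5 genes.

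Akr1c14 encodes a 3-alpha-hydroxysteroid dehydrogenase, which reduces the ring ketone of 5-alpha-reduced steroids. The WT libraries had 809, 749 and 681 CPM of it, and the KO libraries had 615, 589 and 734 CPM. KO replicates 1 and 2 lay below every WT library, and KO replicate 3 lay among them. The means were 746 ± 64.2 and 646 ± 77.6 CPM (SD, n = 3 each), a log2 fold change of -0.21 ± 0.11 (SE). Without KO replicate 3 it was -0.31 ± 0.10 (SE). Akr1c14 is the next protein-coding gene to Akr1c18 on one side, 42.2 kb away, yet KO replicate 3, the lowest KO library for Akr1c18, was the highest for Akr1c14.

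Akr1cl encodes a close relative of the AKR1C enzymes. It was the most abundant of the 6 genes in WT, with 1848, 2067 and 1780 CPM, and the KO libraries had 2015, 2046 and 1759 CPM. The 6 values spanned 1.18-fold, the narrowest range of the 6 genes. The groups overlapped almost fully, with a log2 fold change of 0.03 ± 0.11 (SE).

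Srd5a1 encodes steroid 5-alpha-reductase type 1, which reduces the ring of progesterone and testosterone. The WT libraries had 32.4, 34.3 and 37.9 CPM, and the KO libraries had 47.1, 43.6 and 34.8 CPM. KO replicates 1 and 2 lay above every WT library and KO replicate 3 lay within the WT range. The log2 fold change was 0.26 ± 0.11 (SE), and 0.38 ± 0.09 (SE) without KO replicate 3.

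Srd5a3 encodes an enzyme of the same family whose established role is to reduce polyprenol to dolichol for protein glycosylation. The WT libraries had 37.2, 39.0 and 40.1 CPM, and the KO libraries had 44.4, 41.5 and 36.5 CPM. KO replicate 3 was the lowest of the 6 libraries and KO replicate 1 the highest, and the log2 fold change was 0.07 ± 0.09 (SE).

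Akr1b7 encodes an aldose reductase-like enzyme known from mouse adrenal cortex and vas deferens, which reduces the aldehyde released when the cholesterol side chain is cut. It was close to silent here, with 33, 40 and 30 reads in WT and 27, 13 and 31 reads in KO. These counts correspond to 0.59 to 0.84 CPM in WT and 0.31 to 0.64 CPM in KO, with a log2 fold change of -0.43 ± 0.31 (SE). The groups overlapped, and counting error alone is large at this depth.

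By edgeR's quasi-likelihood test, adjusted by Benjamini-Hochberg, 0 of the 6 genes were called at an adjusted p under 0.05, where 0.219% of the 18250 genes tested were called. Of all genes 0.126% were called higher (23 genes) and 0.0932% lower (17 genes) in KO. At an unadjusted p under 0.05 the count was 2 of 6 against 9.16% of all genes. DESeq2 called 1 of the 6, Akr1c18, where it called 1.24% of 17877 genes. Without KO replicate 3, edgeR called 1 of the 6, Srd5a1, where it called 2.10% of all genes. Of the 6, Akr1c18 alone had all KO libraries above all WT libraries, as did 7.68% of all genes, and none had all KO libraries below, as did 7.89%. In total the groups did not overlap for 15.6% of all genes. Because the 6 genes were selected on these values, nothing is read from these counts. The spread within groups on the log2 CPM scale was 1.41 (SD) for Akr1c18, 0.41 for Akr1b7 and 0.11 to 0.18 for the other 4 genes, against a median of 0.15 over all genes.

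The order of the 6 genes per exon length put Akr1c18 in a different place in WT and KO. In WT, Akr1cl had 451 ± 35.7 CPM per kb and Akr1c14 had 251 ± 21.6. Srd5a1 followed far below with 12.1 ± 0.97 CPM per kb, then Srd5a3 with 8.35 ± 0.31 and Akr1c18 with 7.86 ± 2.97, and Akr1b7 came last with 0.54 ± 0.10 (SD, n = 3 each). Srd5a3 and Akr1c18 did not differ beyond their spread, since the Akr1c18 libraries ran from 4.76 to 10.7 CPM per kb. In KO, the level of Akr1c18 per kb was 708, 376 and 56.0 in replicates 1 to 3. It thus exceeded that of Akr1cl (479) in KO replicate 1, lay between Akr1cl (486) and Akr1c14 (198) in KO replicate 2, and lay below both in KO replicate 3. The order of genes depends on the length used. All annotated exons of Akr1cl cover 4209 bases but its transcript used below has 1761, and for Srd5a3 these are 4648 and 1747. For Akr1c18 they are 1207 and 1200. In CPM, without division by length, Akr1cl exceeded Akr1c18 in every KO library (2015, 2046 and 1759 against 854, 454 and 67.6). The place of Akr1c18 above Akr1cl in KO replicate 1 thus depends on division by all annotated exons. The order per transcript length was not computed.

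**Figure D2:**
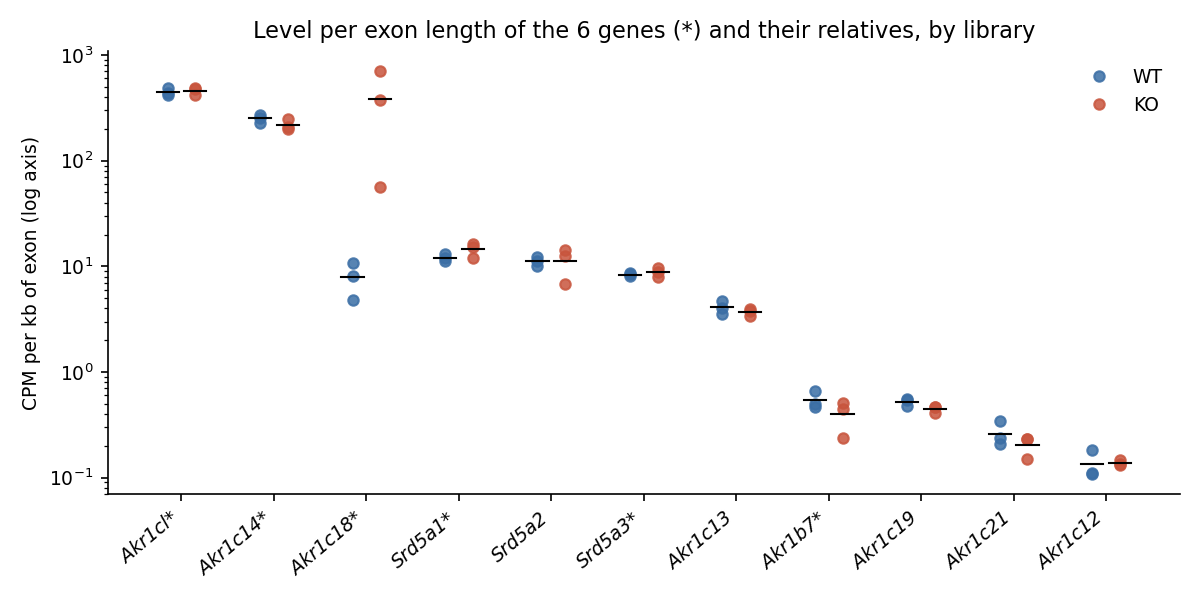
CPM per kb of exon, on a log axis, of the 6 genes (marked with a star) and their relatives in each WT and KO library (points; bars are group means, n = 3). Akr1c18 is the one gene shown whose KO libraries, at 56.0 to 708, leave the WT range of 4.76 to 10.7 by more than 5-fold.

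Set against the enzymes that make progesterone, the level of Akr1c18 per kb was a small share in WT and a larger one in KO. Akr1c18 amounted to at most 12.9% of Star in WT and to 250%, 203% and 37.3% of it in KO. Star moves cholesterol into mitochondria. Against Cyp11a1, the side-chain cleavage enzyme, the ratios were 0.77% to 1.72% in WT and 59.9%, 43.7% and 9.81% in KO. Against Hsd3b1, which forms progesterone itself, they were 0.19% to 0.50% in WT and 16.9%, 11.9% and 2.06% in KO. In each ratio all KO libraries exceeded all WT libraries, and KO replicate 3 was the lowest of the KO libraries. The size of a ratio depends on the exon lengths used, but its order among the libraries does not. In CPM, without division by length, Akr1c18 lay below Star in every KO library (Star 1165, 760 and 617 CPM). For the 5-alpha route the ratio of the second enzyme to the first was compared. Akr1c14 per kb was 24.2, 21.2 and 17.4 times Srd5a1 in WT, and 12.7, 13.1 and 20.5 times in KO. The KO replicate 3 ratio lay within the WT range.

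The AKR1C genes form a cluster on mouse chromosome 13, in which Akr1c18 (ENSMUSG00000021214, minus strand, 4132615 to 4150654, GRCm38) lies between Akr1c14 (ENSMUSG00000033715, plus strand, 4049011 to 4090422) and Akr1c13 (plus strand, 4191184 to 4205596). Akr1cl (ENSMUSG00000025955) lies apart, on chromosome 1 (65012689 to 65032759), Akr1b7 (ENSMUSG00000052131) on chromosome 6 (34412334 to 34423142) and Srd5a3 (ENSMUSG00000029233) on chromosome 5 (76140271 to 76155504). Srd5a1 (ENSMUSG00000021594) is on chromosome 13 as well (69573449 to 69611442), far from the cluster.

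No other gene around Akr1c18 had a difference of comparable size. Within 600 kb on each side lie 17 other protein-coding genes, of which 10 passed the filter. Their log2 fold changes ran from -0.36 to 0.06 with a median of -0.09, and 0 of the 10 were called by edgeR. Akr1c13, 40.5 kb away on the other side, had 5.73 ± 0.84 CPM in WT libraries and 5.19 ± 0.39 CPM in KO libraries (SD, n = 3 each), a log2 fold change of -0.15 ± 0.15 (SE). Akr1c19 and Akr1c21 were at or below 1 CPM, with log2 fold changes of -0.22 ± 0.21 (SE) and -0.36 ± 0.34 (SE). Akr1c6, Akr1c12 and Akr1c20 did not pass the filter, and the highest count of any of them in 1 library was 11.

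**Figure D3:**
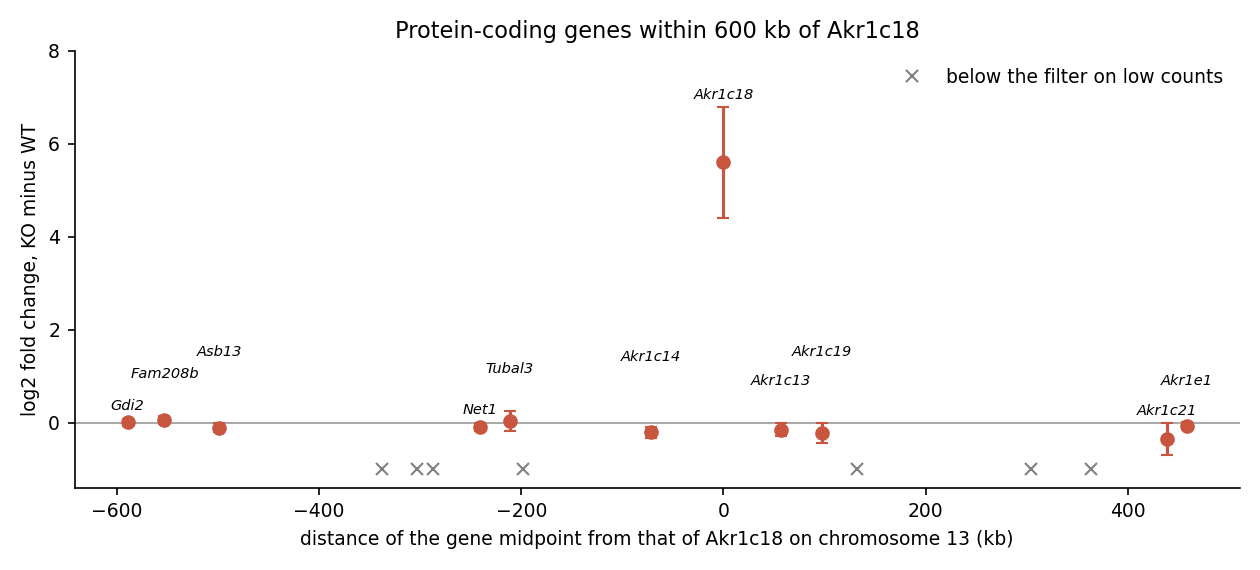
Log2 fold change (KO minus WT, whiskers are SE) of protein-coding genes within 600 kb of Akr1c18, by distance of the gene midpoint in kb; crosses mark 7 genes below the filter on low counts, with no value. Akr1c18 stands at 5.60 and the 10 others lie between -0.36 and 0.06.

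Because AKR1C genes are near copies of each other, reads could be shared between them, and the sources used here do not say how a read with several matches was counted. In the GENCODE M21 coding sequences, Akr1c18 (969 bases without the stop codon) was 77.7% identical to Akr1cl, 76.8% to Akr1c21 and 76.0% to Akr1c14. Its longest identical run with any AKR1C relative was 56 bases, with Akr1cl, which is shorter than the 150-base reads. The stretch of 60 coding bases around that run (bases 411 to 470 of the Akr1c18 coding sequence) is shown for the 3 abundant AKR1C genes, since it is where Akr1c18 is hardest to tell from Akr1cl. Capitals mark bases that differ from Akr1c18.
Akr1c18: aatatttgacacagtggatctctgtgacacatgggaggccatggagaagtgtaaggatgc
Akr1cl: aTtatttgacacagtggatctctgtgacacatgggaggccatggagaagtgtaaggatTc
Akr1c14: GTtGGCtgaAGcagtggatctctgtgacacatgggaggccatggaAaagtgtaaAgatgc
Akr1cl differs from Akr1c18 here at 2 bases and Akr1c14 at 9. Over the whole Akr1c18 transcript, 0.61% of its windows of 50 bases occurred in a transcript of another gene, in each case Akr1cl. In the 1 transcript searched of each gene, no window of Akr1c14 or Srd5a3 was shared with another gene. All annotated exons of Akr1c14 do share 234 bases with the pseudogene Gm18857 on the same strand, which had at most 1 read. In Akr1b7 15.8% were shared, with Akr1b10, Akr1b8 and 2 pseudogenes, so its few reads are uncertain. In Srd5a1 16.5% were shared with the overlapping transcript Gm17108, which had at most 51 reads, and Nsun2, on the other strand, spans Srd5a1 without sharing an exon base with it. Within Akr1cl lies the pseudogene Gm8550, on the opposite strand, with at most 225 reads.

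The 250 bases before the RefSeq start of Akr1c18 and of its neighbour Akr1c14 are shown because KO replicate 3 was the lowest KO library for one of these neighbours and the highest for the other. Both come from the RefSeq promoter table on GRCm38.p6, at chr13:4150647-4150896 (minus strand) and chr13:4059341-4059590 (plus strand).
Akr1c18: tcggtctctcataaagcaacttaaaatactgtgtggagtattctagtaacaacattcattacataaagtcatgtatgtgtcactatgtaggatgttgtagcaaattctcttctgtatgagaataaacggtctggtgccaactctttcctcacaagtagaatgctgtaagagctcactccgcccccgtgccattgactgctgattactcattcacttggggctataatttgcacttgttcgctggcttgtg
Akr1c14: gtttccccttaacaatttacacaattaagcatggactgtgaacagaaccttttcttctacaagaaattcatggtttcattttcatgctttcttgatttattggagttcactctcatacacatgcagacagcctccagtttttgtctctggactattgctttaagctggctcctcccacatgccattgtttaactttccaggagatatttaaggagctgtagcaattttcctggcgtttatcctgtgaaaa
Both windows are rich in A and T, with 41.6% and 38.8% G or C, while those of Srd5a1 and Srd5a3 have 64.8% and 60.8%. They were searched on both strands for TTCNNNGAA (bound by STAT5, the factor through which prolactin acts), CAAGGTCA (NR5A receptors), AAAGGTCA (NR4A receptors), TGANTCA (AP-1), TGACGTCA (the cyclic AMP response element), AGATAA (the GATA family of factors) and, as a core promoter element, TATAAA. These letters occur in 7.02%, 1.33%, 1.34%, 6.75%, 1.55%, 9.99% and 12.4% of the 32851 mouse promoter windows of the same length, in that order. Neither window held any of them, so no base is in capitals. Most windows lack each of them, so the absence says little, and bases further upstream were not searched. Of the other 4 genes, Akr1b7 held AAAGGTCA, on the minus strand from 248 to 241 bases before its start, and Akr1cl held AGATAA from 241 to 236 bases before its start.

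None of the other genes listed for steroid conversion or for the signals tied to Akr1c18 passed edgeR's test on all 6 libraries. Of 81 such genes in 7 lists, 79 were matched, 68 passed the filter and 0 were called by edgeR, where 0.219% of all genes were. The list of signals, with 18 genes tested, holds genes such as Prlr and Jun and not steroid-converting enzymes. At an unadjusted p under 0.05 in edgeR the count was 14 of 68, where it was 9.16% of all genes. DESeq2 called 7 of them, where it called 1.24% of 17877 genes. Without KO replicate 3, edgeR called 11 of the 68, with 7 higher and 4 lower in KO, where it called 2.10% of all genes (1.61% higher and 0.499% lower).

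Among the reductases nearest to the 6 genes the fold changes were small. The 3 other AKR1C genes tested had a median log2 fold change of -0.22, the 6 other aldo-keto reductases tested one of 0.04, and the median over all genes was 0.00. Akr1b3, the aldose reductase, had 0.09 ± 0.08 (SE, adjusted p = 0.771) and its relative Akr1b8 had 0.12 ± 0.12 (SE, adjusted p = 0.777 in edgeR). Srd5a2, the type 2 steroid 5-alpha-reductase, had 8.68 to 10.4 CPM in WT, whereas the KO libraries had 12.3, 10.7 and 5.84 CPM (0.01 ± 0.26 SE, adjusted p = 0.99 in edgeR). Its KO libraries lay on both sides of the WT range. Tecr, an enoyl reductase of fatty acid elongation related to the 5-alpha-reductases, had 0.25 ± 0.12 (SE, adjusted p = 0.578 in edgeR). Akr1d1, the 5-beta-reductase, had at most 6 reads in a library and did not pass the filter.

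Hydroxysteroid and carbonyl reductases (19 tested) had a median log2 fold change of 0.01, with 10 positive. Hsd11b2, which inactivates glucocorticoids, had 97.4 to 106 CPM in WT libraries and 78.4 to 85.4 CPM in KO libraries (-0.34 ± 0.07 SE, adjusted p = 0.128 in edgeR), with all KO libraries below all WT libraries. Hsd17b2 oxidises estradiol and testosterone, and its human enzyme also turns the product of 20-alpha-reduction back into progesterone. The WT libraries had 18.9, 25.2 and 25.7 CPM, and the KO libraries had 16.2, 14.9 and 10.6 CPM (-0.74 ± 0.18 SE, adjusted p = 0.282 in edgeR). Its groups did not overlap either, and it was lowest in KO replicate 3, not in the library with the most Akr1c18. Without KO replicate 3 both passed in edgeR, Hsd11b2 at -0.37 (adjusted p = 0.0141) and Hsd17b2 at -0.58 (adjusted p = 0.0366).

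In the list of other steroid-converting enzymes (9 tested, median 0.11, or 0.01 leaving out KO replicate 3), Por, the electron donor of microsomal P450 enzymes, had 0.52 ± 0.10 (SE, adjusted p = 0.0922) and Cyp1b1 had -0.46 ± 0.09 (SE, adjusted p = 0.11 in edgeR). Each passed without KO replicate 3, at 0.46 (adjusted p = 0.0115) and -0.39 (adjusted p = 0.0241 in edgeR). All 12 progesterone synthesis genes had a positive log2 fold change, with a median of 0.28, and leaving out KO replicate 3 it was 11 of 12 with a median of 0.41. Fdx1, the ferredoxin that feeds electrons to CYP11A1, had 450 to 608 CPM in WT libraries, whereas the KO libraries had 809, 722 and 1140 CPM (0.77 ± 0.19 SE, adjusted p = 0.27 in edgeR). Star was 3.12, 2.04 and 1.65 times the WT mean in KO replicates 1 to 3, the same order as Akr1c18 but over a far smaller range. Without KO replicate 3, Star (1.37, adjusted p = 0.0115) and Fdx1 (0.56, adjusted p = 0.026) passed in edgeR, as did Cyp11a1, Fdxr and Npc2.

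Of 18 genes of the signals tied to Akr1c18 in rodent luteal cells, 16 had a positive log2 fold change, with a median of 0.59. That list includes Nr4a1, at 763 CPM in KO replicate 3 and 43.2 to 73.2 CPM elsewhere, and leaving out KO replicate 3 gave 13 of 18 and a median of 0.17. Ptgfr, the receptor for prostaglandin F2 alpha, the luteolytic signal, had 190, 83.2 and 107 CPM in WT libraries, whereas the KO libraries had 410, 246 and 239 CPM (1.24 ± 0.41 SE, adjusted p = 0.478 in edgeR). All KO libraries exceeded all WT libraries, and KO replicate 1 was the highest. Prlr, the prolactin receptor, had 497 to 558 CPM in WT libraries, whereas the KO libraries had 911, 810 and 635 CPM (0.59 ± 0.13 SE, adjusted p = 0.19 in edgeR). Its order in KO was that of Akr1c18, and it passed without KO replicate 3 (0.73, adjusted p = 0.000579 in edgeR). Jun, a subunit of AP-1, had 392 to 488 CPM in WT libraries, whereas the KO libraries had 309, 258 and 531 CPM. KO replicates 1 and 2 lay below the WT range and KO replicate 3 above it, and Jun was called lower when KO replicate 3 was left out (-0.61 ± 0.11 SE, adjusted p = 0.00947 in edgeR). Stat5a (0.03 ± 0.11 SE) and Stat5b (0.12 ± 0.08 SE) had groups that overlapped.

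**Figure D4:**
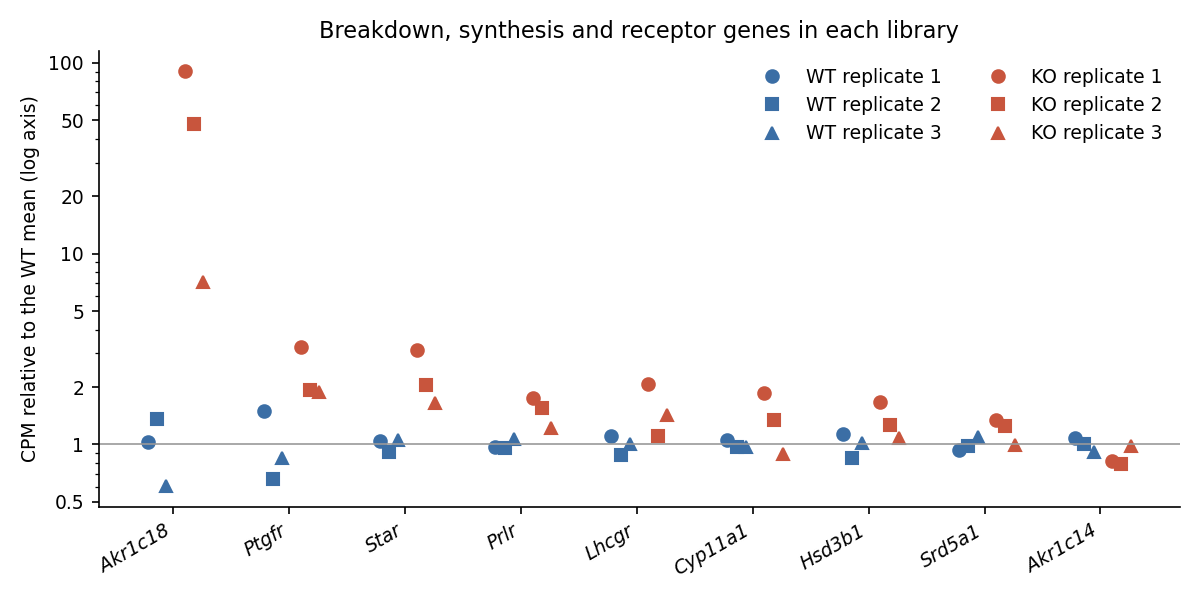
CPM of each library relative to the WT mean, on a log axis, for 3 of the 6 genes (Akr1c18, Srd5a1, Akr1c14) and for synthesis and receptor genes. KO replicate 1 is the highest library for Akr1c18 (90.1), Srd5a1 and the 6 synthesis and receptor genes, while for Akr1c14 it stands at 0.824 of the WT mean, below every WT library.

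**Figure D5:**
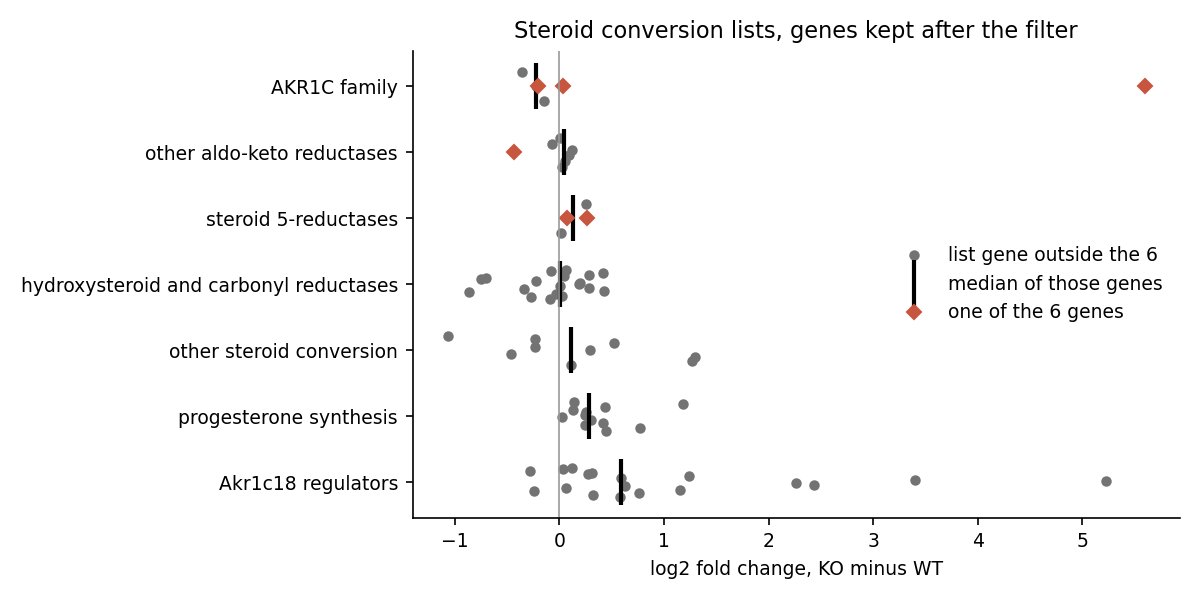
Log2 fold change (KO minus WT) of each gene kept after the filter in the 7 lists of steroid conversion and Akr1c18 regulators (points; vertical bars are medians of genes outside the 6, diamonds are the 6 genes). The medians run from -0.22 to 0.59 and Akr1c18 lies at 5.60.

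Markers listed for luteal and other cells differed between the same libraries. The luteal list includes genes described above, such as Star, Prlr and Ptgfr, so its sum is not a separate measure. Some of its genes were already high in WT, where Hsd3b1 held places 8, 11 and 11 by CPM per kb. The 11 luteal cell markers other than Akr1c18 had a summed level of 10640 to 13220 CPM in WT. The KO libraries had 21210, 15750 and 13720 CPM, the order of Akr1c18. The synthesis genes Hsd3b1 (7786, 5886 and 5043 CPM in KO) and Cyp11a1 (5678, 4132 and 2740 CPM) weighed most in this sum. Not every marker had this order. Lhcgr had 730.5, 390.2 and 502.7 CPM in KO, and Inhba, also listed for granulosa cells, had 1081, 1123 and 2202 CPM. All 11 log2 fold changes were positive (median 0.55). For 4 of the 11, all KO libraries lay above all WT libraries, as for 7.68% of all genes. The 10 theca and interstitial cell markers summed to 1680 to 1843 CPM in WT and to 3167, 2165 and 2283 CPM in KO. Only 6 of the 10 had a positive log2 fold change (median 0.13), so the sum does not stand for each marker. All KO libraries lay above all WT libraries for 3 of the 10, as for 7.68% of all genes. They lay below for 1, as for 7.89% of all genes. The 8 red blood cell markers summed to 384 to 799 CPM in WT and to 2260, 1339 and 831 CPM in KO, again in the order of Akr1c18. For 7 of the 8, all KO libraries lay above all WT libraries, as for 7.68% of all genes. Among these Slc4a1, the red cell anion exchanger, was called higher (2.13 ± 0.32 SE, adjusted p = 0.0406 in edgeR), at no more than 1.11 CPM. The 12 endothelial markers summed to 203 to 241 CPM in WT and to 359, 257 and 177 CPM in KO. The 12 immune markers summed to 207 to 267 CPM in WT and to 322, 247 and 173 CPM in KO. Both also had the order of Akr1c18 in KO, with KO replicate 3 below the WT range. The 12 oocyte markers went the other way, with 663 to 865 CPM in WT and 551, 536 and 601 CPM in KO. None of the 12 had a positive log2 fold change (median -0.37). All KO libraries lay below all WT libraries for 5 of them, as for 7.89% of all genes. By edgeR, 8 had an unadjusted p under 0.05, as did 9.16% of all genes, and 0 were called, where 0.219% were. Leaving out KO replicate 3, 1 was called lower, as were 0.499% of all genes. The 10 ovarian surface epithelium markers summed to 548 to 760 CPM in WT and to 660, 616 and 459 CPM in KO, the order of Akr1c18 again. Of them 1 had a positive log2 fold change (median -0.26). No marker of these 7 lists was at 0 in all libraries. The share of all genes with the order of Akr1c18 in KO was not counted. Nothing is therefore read from that order, for these sums or for single genes. The part of the listed markers in the levels of the 6 genes was not tested. Of adrenal cortex markers besides Akr1b7, the 5 listed included 1 with no read in any library, and only 2 passed the filter.

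By Pearson correlation of log2 CPM over the 6 libraries, the 5 genes most like Akr1c18 among 11185 with a mean of at least 5 CPM were Ppm1g (r = 0.990), Onecut2 (0.986), Ptprm (0.986), Mbtps2 (0.985) and Dusp3 (0.985). The measure ignores the size of a difference, and the libraries fall into 2 groups, so the values describe likeness only. Onecut2, a homeodomain transcription factor gene, was the one with a large range, with 2.30, 1.70 and 1.31 CPM in WT libraries against 24.3, 16.6 and 3.88 CPM in KO libraries. Ppm1g, a protein phosphatase gene, spanned only 155 to 169 CPM. For Srd5a1 the most alike were Cyp4f14 (r = 0.997) and Abca1 (0.996), the cholesterol exporter, which had 138 to 169 CPM in WT libraries against 253, 225 and 148 CPM in KO libraries. For Srd5a3 they were Emp3 (0.999) and Prelp (0.997), and for Akr1c14 they were Crnkl1 and Tcea1 (0.986 each). For Akr1cl they were Mrm1 and Prdx2 (0.982 each), and for Akr1b7, with few reads, Nelfe (0.996) and Cotl1 (0.971).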

How the data were processed

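The deposited files hold whole-number counts per gene, not normalized, for 3 WT and 3 KO libraries. Per the submitters' processing notes the authors used featureCounts (Subread 1.5.2), STAR 2.5.2b and Trimmomatic 0.36 with GRCm38. The sources used here do not give the annotation release, how strand and multiply matching reads were handled, or whether pairs were counted. Symbols came from GENCODE M21 (48970 of 49315 genes matched), and 2 of the listed genes had no match and are not analysed here.

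Counts were analysed with edgeR 4.0.16 (R 4.3.3): filterByExpr, TMM, a robust quasi-likelihood fit of genotype alone, and adjustment by Benjamini-Hochberg. SE is the log2 fold change over the root of the F statistic. One CPM corresponds to 42.5 to 51.4 counts. Alternatives were RLE factors, no filter, DESeq2 1.42.0, the replicate number as a block and leaving out each library. On simulated counts for KO against WT (18250 genes), 86.6% of 67 genes changed 2-fold and 52.2% of 67 changed 1.5-fold were recovered, and 7.14% of calls were unchanged genes. Only genes above a minimum mean count were changed, and no simulated library was made to stand apart as KO replicate 3 did. In the real libraries a gene not called can still differ by more than 2-fold, as Akr1c18 did. The genes and lists were chosen with earlier results of these data known. Named beside the 6 genes are Kdm6b and the 2 genes with the smallest p of each of the 7 lists of steroid conversion and Akr1c18 regulators. Genes of them called there, AKR1C genes and those most alike are named too. Akr1d1, Nr4a1, Jun, Amhr2, Slc4a1, Stat5a, Stat5b, Cyp11a1, Hsd3b1, Lhcgr and Inhba were added after their values were seen. Coding sequences were aligned with Biopython 1.88.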

Additional observations from a re-analysis of the deposited data

How the results depend on the processing

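The log2 fold change of each of the 6 genes moved by less than its spread within groups under all 10 alternatives. Where a library was left out, this was all but fixed in advance, since the spread comes from the same libraries. The limit was also widest for Akr1c18 (1.41), so nothing is read from it. That of Akr1c18 ran from 5.08 (replicate block) to 5.60 under other tools and filters and from 4.78 to 6.11 when a library was left out. Signs changed only in Akr1cl (down to -0.01) and Srd5a3 (-0.0011 without KO replicate 1), whose values are near 0. Counts of calls moved more, and the cause was not tested. Genes called higher and lower in KO numbered 97 and 102 with no filter on low counts, 127 and 94 with DESeq2, and 10 and 5 with the replicate number as a block. When a library was left out they ran from 5 to 293 and from 2 to 91, with the highest counts without KO replicate 3. Of the genes listed for steroid conversion or as Akr1c18 regulators, 4 were called with no filter (Por, Prlr, Hsd11b2, Cyp1b1) and 7 with DESeq2. With the block 1 was called (Ptgfr, 1.28, adjusted p = 0.0144 in edgeR), and 0 to 11 were called when a library was left out. Same-numbered libraries did not deviate together (correlations -0.02, 0.07 and -0.03), so the numbers are not taken as pairs. With 13 to 40 reads a library, Akr1b7 is limited by depth.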
